A study of Homo sapiens with 9 samples.

Results

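The genes of the mitochondrial ribosomal proteins were taken as all protein-coding entries whose symbol is MRPL or MRPS followed by a number and at most 1 letter. The rule gave 78 gene entries, with 76 symbols, of the 57766 genes in the deposited table. MRPL symbols, named for the large subunit, made up 48 entries and MRPS symbols, named for the small subunit, 30. MRPL30 and MRPS17 each had a second, weakly measured entry. Cells of HEK293 Freestyle, a suspension form of a standard line from human embryonic kidney, were cultured for 36 h in 1 of 3 media, with 3 libraries each and 9 in all. The full group had untreated Freestyle medium, the depleted group Zn(II)-depleted Freestyle medium, and the repleted group the depleted medium with Zn(II) added back. Cells of every group came from a preculture of at least 18 h in Freestyle medium, were washed in PBS and were plated at 4000000 cells/mL. The plates of all groups had first been rinsed with EDTA, a chelator of metal ions, and then with PBS; the labels do not give the EDTA concentration in a readable form. The series asks how a cell line responds to Zn(II) starvation, and the labels describe the 3 libraries of a group as biological triplicates.

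Mitochondrial ribosomes translate the few messages encoded by mitochondrial DNA, all of them for subunits of the respiratory chain and ATP synthase. Their RNAs are mitochondrial, but all of their proteins are encoded in the nucleus, made in the cytosol and imported. The large subunit forms peptide bonds and carries the stalks, the central protuberance and the exit tunnel, and the small subunit decodes the message. Part of the proteins have bacterial counterparts and part are found only in mitochondrial ribosomes.

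The start of MRPL54, the member with the largest change, is shown first, with letters that recur in promoters of the family in capitals. RefSeq promoters (build GRCh38.p14, 250 bases before to 50 after a start site) were matched by symbol for 67 of the 76 symbols. Cores of 4 motifs were searched on both strands: CCGGAAG (ETS family), ATGGCGGC (YY1), GCATGCGC (NRF1) and ACANNTCCC (ZNF143). The last was chosen after values and promoters had been seen. The 250 bases before the MRPL54 start, chr19:3762432-3762681 (plus strand), hold an ACANNTCCC match whose first base is at position -53 from the start and an ETS core, read on the other strand, at -21; both are in capitals.
MRPL54: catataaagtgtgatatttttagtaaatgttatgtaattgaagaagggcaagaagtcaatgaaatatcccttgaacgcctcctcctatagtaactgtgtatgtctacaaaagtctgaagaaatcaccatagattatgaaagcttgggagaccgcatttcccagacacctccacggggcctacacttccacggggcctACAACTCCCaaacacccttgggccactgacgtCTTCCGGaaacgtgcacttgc

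Among the 67 promoters, 43.3% held the ETS core, against 12.2% of all 27305 symbols with a promoter. The YY1 core was in 26.9% against 3.67%, the NRF1 core in 8.96% against 3.68%, and ACANNTCCC in 17.9% against 7.86%. Against promoters of genes that passed the expression filter, the shares to compare with were 21.97% for the ETS core, 7.23% for YY1, 6.47% for NRF1 and 10.4% for ACANNTCCC. No member promoter held overlapping matches of different motifs (0 of 67). The ACANNTCCC match lay in 9 of 36 promoters of members that were lower in depleted medium, in 1 of 17 of those that were higher and in 2 of 14 of those not called. Among promoters of all tested genes it lay in 12.1% of those called lower, 9.14% of those called higher and 9.79% of those not called. For changes of at least 1 on the log2(RPKM + 1) scale it lay in 15.8% of lower and 13.8% of higher genes, so large changes of both directions had it more often. The motif was chosen with these values known, so the split by call is a description. The ETS core lay in 17 of the 36 promoters of lower members, in 7 of the 17 of higher ones and in 5 of the 14 of those not called, beside 16.5%, 28.4% and 21.5% of all tested genes with the same calls. These are matches of letters and not sites shown to be bound. Windows of 30 bases around the ACANNTCCC match, read on the strand of the match and with the match in capitals, are given for every other member that had one, and where a member had several, for the one nearest to a start site. They comprise 8 members that fell, MRPL34, which rose, and MRPL24 and MRPS22, which were not called. They lie at MRPS26 chr20:3045980-3046009 (plus strand), MRPL44 chr2:223957395-223957424 (minus strand), MRPL19 chr2:75646766-75646795 (minus strand), MRPS25 chr3:15065358-15065387 (minus strand), MRPL42 chr12:93467442-93467471 (plus strand), MRPL50 chr9:101398776-101398805 (minus strand), MRPS31 chr13:40771182-40771211 (plus strand), MRPL52 chr14:22829650-22829679 (minus strand), MRPL34 chr19:17305795-17305824 (plus strand), MRPL24 chr1:156741182-156741211 (minus strand) and MRPS22 chr3:139343935-139343964 (plus strand).
MRPS26: cccgaggactACAGGTCCCaaggttccccg
MRPL44: gtccccgtaacACACTTCCCccggaacccg
MRPL19: acgtcaagactACAGCTCCCagtaatcagt
MRPS25: aaggccgcctACAAGTCCCagagtgctccg
MRPL42: cgcggagactACATTTCCCagaatgccccg
MRPL50: cccctcaactACAACTCCCgtcatgctcgg
MRPS31: cccgctgccaaACACGTCCCcgccctctct
MRPL52: agccgttctgaACAGTTCCCacaacctccc
MRPL34: aggagaaactACATTTCCCataatcctttg
MRPL24: gcggcggactACAACTCCCagcatgctgag
MRPS22: taactagactACATTTCCCagagtgctgca

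Labels and cells were checked on other genes. The zinc-responsive genes MT2A, MT1X, MT1F and SLC30A1 were lower in depleted than in full medium, all 4 by limma. MT2A, a metallothionein, averaged 191 ± 8.90 RPKM (SD, n = 3) in full, 6.46 ± 0.687 in depleted and 93.5 ± 3.34 in repleted medium, and 2 of the 4, MT2A and MT1F, were also lower in repleted than in full medium. Of the HEK293 markers, VIM, KRT8 and KRT18 had means of at least 59.2 RPKM in every group, while PAX2, LHX1 and NEFM had at most 4.28. These markers were not stable: 4 of the 6 were lower in depleted than in full medium, PAX2 (-1.43 on the log2(RPKM + 1) scale, a mean 5.48-fold lower), LHX1 (-0.88), KRT8 (-0.57) and KRT18 (-0.38), VIM was higher (0.21), and NEFM was not called (-0.37). Of 5 markers of other lineages, PTPRC, CD3E, ALB and HBB had means of at most 0.197 RPKM, and COL1A1 averaged 18.2 RPKM with full against 8.39 with depleted medium. The part of such shifts in the results below was not tested. Pairwise correlations of the libraries over genes were between 0.983 and 0.987 within a group, between 0.982 and 0.986 for full with repleted, and between 0.936 and 0.941 for depleted with either. The table gives no read counts; steps between low values put the depth at about 17000000 to 23500000 reads a library, an estimate from which no interval was computed, since only 56.5% to 64.1% of low values came out within 0.1 of a whole read.

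Every one of the 78 entries passed the filter on low values, so that all were tested. In depleted against full medium, 43 of them were lower, 19 were higher and 16 were not called (limma, adjusted p under 0.05). Among all 15774 genes tested, 31.2% were called lower and 29.8% higher, so the share of members called lower, 55.1%, was above the background and that of members called higher, 24.4%, was below it. The median change of the members was -0.22 on the log2(RPKM + 1) scale, with quartiles of -0.78 and 0.11, and that of all genes was 0.00084. All changes given below are differences on this scale. Decreases of at least 1 on this scale were found for 8 members, against 6.81% of all genes, and increases of that size for 0, against 3.29%. The libraries of both groups did not overlap for 64 of the 78 members, a larger share than the 67.6% of all genes. RPKM measures a share of a library's reads and not molecules per cell, and in bulk samples fewer expressing cells and less RNA per cell cannot be told apart.

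**Figure D1:**
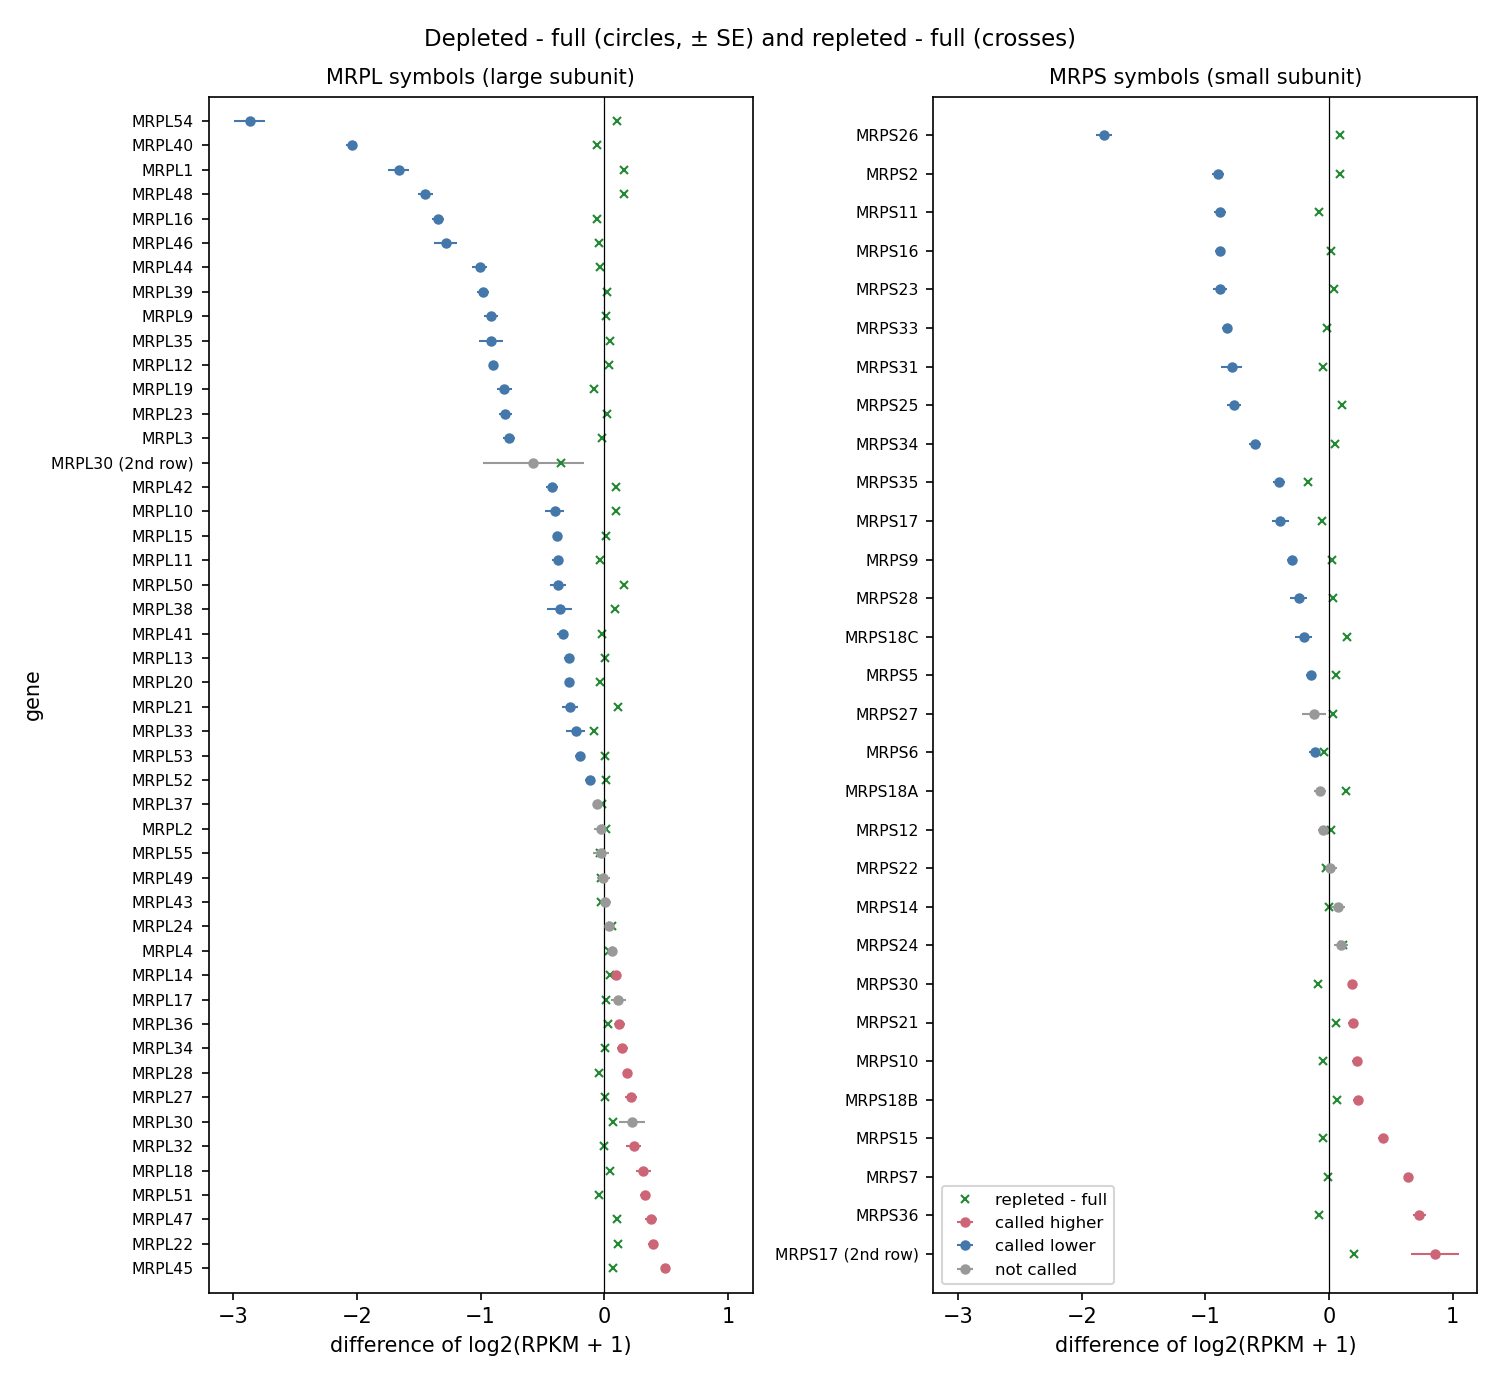
Difference of log2(RPKM + 1) between depleted and full medium for each MRPL entry (left) and MRPS entry (right), circles with the standard error, coloured by the limma call, and between repleted and full medium (crosses). The circles run from -2.87 (MRPL54) to 0.86 (the second MRPS17 entry), while the crosses lie between -0.35 and 0.20.

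Against repleted medium the depleted libraries gave 42 lower, 17 higher and 19 uncalled members, with a background of 31.2% lower and 29.5% higher. The median change of the members was again -0.22, and that of all genes was -0.01. Libraries did not overlap for 61 of the 78 members, a larger share than the 65.2% of all genes. The largest decreases were MRPL54 (-2.97), MRPL40 (-1.99), MRPS26 (-1.91), MRPL1 (-1.82), MRPL48 (-1.61), MRPL16 (-1.28) and MRPL46 (-1.24), each a log2 difference. The largest increases were MRPS36 (0.81), MRPS7 (0.64), MRPS15 (0.48), MRPL45 (0.42) and MRPL51 (0.38), apart from the second MRPS17 entry (0.65). MRPL33, MRPS6, MRPL14 and MRPL36 were called against full medium alone, and MRPS18A against repleted medium alone, differences between the comparisons that were not tested. Both comparisons use the same depleted libraries and are not independent of each other.

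No member was called between repleted and full medium by limma (0 of 78, 6 at an unadjusted p under 0.05), beside 0.0317% of all genes called. The changes lay between -0.35 and 0.20 with a median of 0.02, and the extremes were the second entries of MRPL30 and MRPS17. The libraries of these 2 groups did not overlap for 13 members, 10 of them higher and 3 lower in repleted medium, with 12.4% for all genes.

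The large and small subunits both contributed to the decrease. Of the 48 MRPL entries 27 were lower (56.25%) and 11 higher (22.9%), with a median of -0.28. Of the 30 MRPS entries 16 were lower (53.3%) and 8 higher (26.7%), with a median of -0.13. Among all genes 31.2% were lower and 29.8% higher, so the shares lower were above the background and the shares higher somewhat below it. The difference of the medians, large minus small, was thus -0.15, but it depended on how the genes were assigned. MRPS30 and MRPS18A lie in the large subunit in structures of the human mitochondrial ribosome, and MRPS36 is now known as a part of the 2-oxoglutarate dehydrogenase complex. With these moved, the large subunit had 27 lower and 12 higher of 50 (median -0.26), the small subunit had 16 lower and 6 higher of 27 (median -0.21), and the difference of the medians was -0.05. Against repleted medium the difference was -0.03 by symbol and 0.02 by structure.

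Summed over MRPL entries, the level was 3898 ± 40.9 RPKM (SD, n = 3) in full, 3344 ± 42.5 in depleted and 3929 ± 82.3 in repleted medium. Summed over MRPS entries it was 1846 ± 22.5, 1628 ± 4.36 and 1873 ± 39.2 RPKM. Depleted libraries were thus lower by 14.2% for the large and 11.8% for the small subunit than full ones, and the 3 depleted sums lay below all 6 others in both subunits. The ratio of the large to the small sum ran from 2.10 to 2.12 in full, from 2.03 to 2.09 in depleted and from 2.08 to 2.11 in repleted libraries. Assigned by structure, it ran from 2.32 to 2.34, from 2.33 to 2.41 and from 2.30 to 2.33. By symbol the ratios of depleted libraries lay below those of full ones and overlapped those of repleted ones. By structure they overlapped those of both full and repleted libraries.

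**Figure D2:**
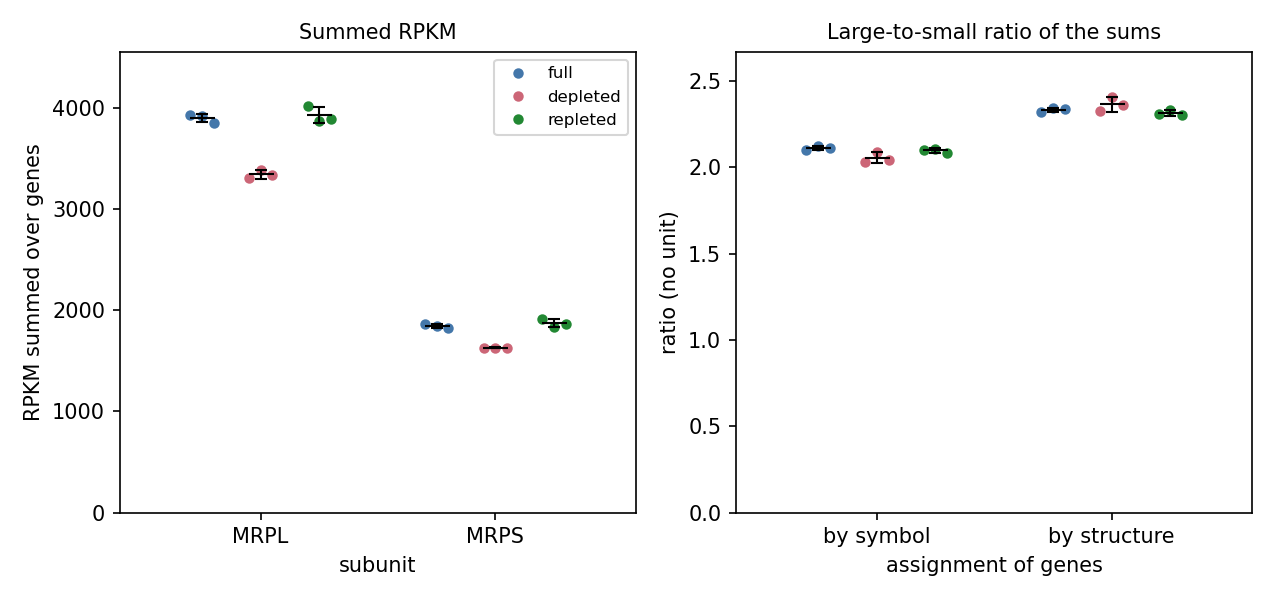
RPKM summed over the MRPL and the MRPS entries in each library (left) and the ratio of the large to the small sum with genes assigned by symbol or by structure (right); points are libraries and bars the mean ± SD of 3. Depleted sums lie near 3344 and 1628 RPKM, below all full and repleted sums, and the ratio stays between 2.03 and 2.41.

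The 2 stalks of the large subunit are flexible arms that handle the outgoing transfer RNA and recruit translation factors. Of their proteins 6 of 6 were lower in depleted medium, beside 55.1% of all members and 31.2% of all genes. Structural regions were assigned after the values were seen. MRPL54, which lies at the base of the stalk for translation factors, measured 53.04, 55.6 and 59.6 RPKM with full, 5.86, 8.71 and 6.15 with depleted and 64.1, 54.9 and 62.6 with repleted medium. It fell by 2.87 ± 0.12 (SE), adjusted p = 8.63e-08, a mean 8.12-fold lower than in full medium. All 3 depleted libraries lay far below the other 6, with the highest at 8.71 RPKM. MRPL1, the protein of the stalk at the transfer RNA exit, measured 28.4, 30.7 and 26.6 RPKM with full, 8.30, 8.58 and 8.11 with depleted and 32.5, 28.2 and 35.6 with repleted medium. It fell by 1.66 ± 0.09 (SE), adjusted p = 2.49e-07, with no overlap of the depleted with any other library. MRPL10, the base on which the factor stalk is built, measured 47.2, 56 and 52.1 RPKM with full, 37.8, 38.5 and 40.2 with depleted and 61.98, 50.8 and 52.97 with repleted medium, and it fell by 0.40 ± 0.08 (SE), adjusted p = 0.00179. MRPL12, copies of which form the moving arm, measured 216, 209.6 and 210.5 RPKM with full, 111, 114 and 114 with depleted and 225, 211 and 218 with repleted medium, and it fell by 0.90 ± 0.03 (SE), adjusted p = 2.19e-08. In both the depleted libraries lay below the other 6, and the difference between the changes of the pair was not tested. MRPL11 (-0.38) and MRPL53 (-0.20) also fell.

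The central protuberance, the crown of the large subunit that faces the head of the small one, had 5 lower, 2 higher and 1 uncalled of 8 members. With 31.2% of all genes lower and 29.8% higher, the share lower was above the background and the share higher somewhat below it. These members too were placed after the values were seen. The 3 largest decreases were in proteins specific to mitochondria. MRPL40 measured 58.9, 60.6 and 55.5 RPKM with full, 13.6, 13.3 and 13.3 with depleted and 57.98, 53.8 and 56.4 with repleted medium, and it fell by 2.04 ± 0.05 (SE), adjusted p = 2.95e-09. Its 3 depleted libraries lay close together and below all others. The gene overlaps C22orf39 and HIRA on the opposite strand in GENCODE 29, and the counting is not stated to use strand. MRPL48 measured 41.4, 42.9 and 36.8 RPKM with full, 14.4, 14.5 and 13.5 with depleted and 46.2, 45 and 44.1 with repleted medium, and it fell by 1.45 ± 0.06 (SE), adjusted p = 7.46e-08. MRPL46 measured 38.7, 36.8 and 42.7 RPKM with full, 14.96, 18.3 and 13.8 with depleted and 39.2, 37.8 and 37.2 with repleted medium, and it fell by 1.28 ± 0.09 (SE), adjusted p = 2.39e-06. For these 3 genes every depleted library was below every other library, and full and repleted libraries overlapped for MRPL40 and MRPL46. The repleted libraries of MRPL48 lay above the full ones, a difference that was not called (adjusted p = 0.592). MRPL38 (-0.36) and MRPL52 (-0.12) also fell, and MRPL55, the counterpart of a bacterial protein of this region, was not called (-0.03). MRPL18, which contacts the structural RNA of the protuberance, measured 101, 96.6 and 99.6 RPKM with full, 119.7, 127 and 124 with depleted and 112, 102 and 93.1 with repleted medium and rose by 0.32 ± 0.06 (SE), adjusted p = 0.00134. MRPL27, whose bacterial counterpart reaches towards the peptidyl transferase centre, rose by 0.22 ± 0.05 (SE), adjusted p = 0.00332. Both genes were highest in the 3 depleted libraries.

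**Figure D3:**
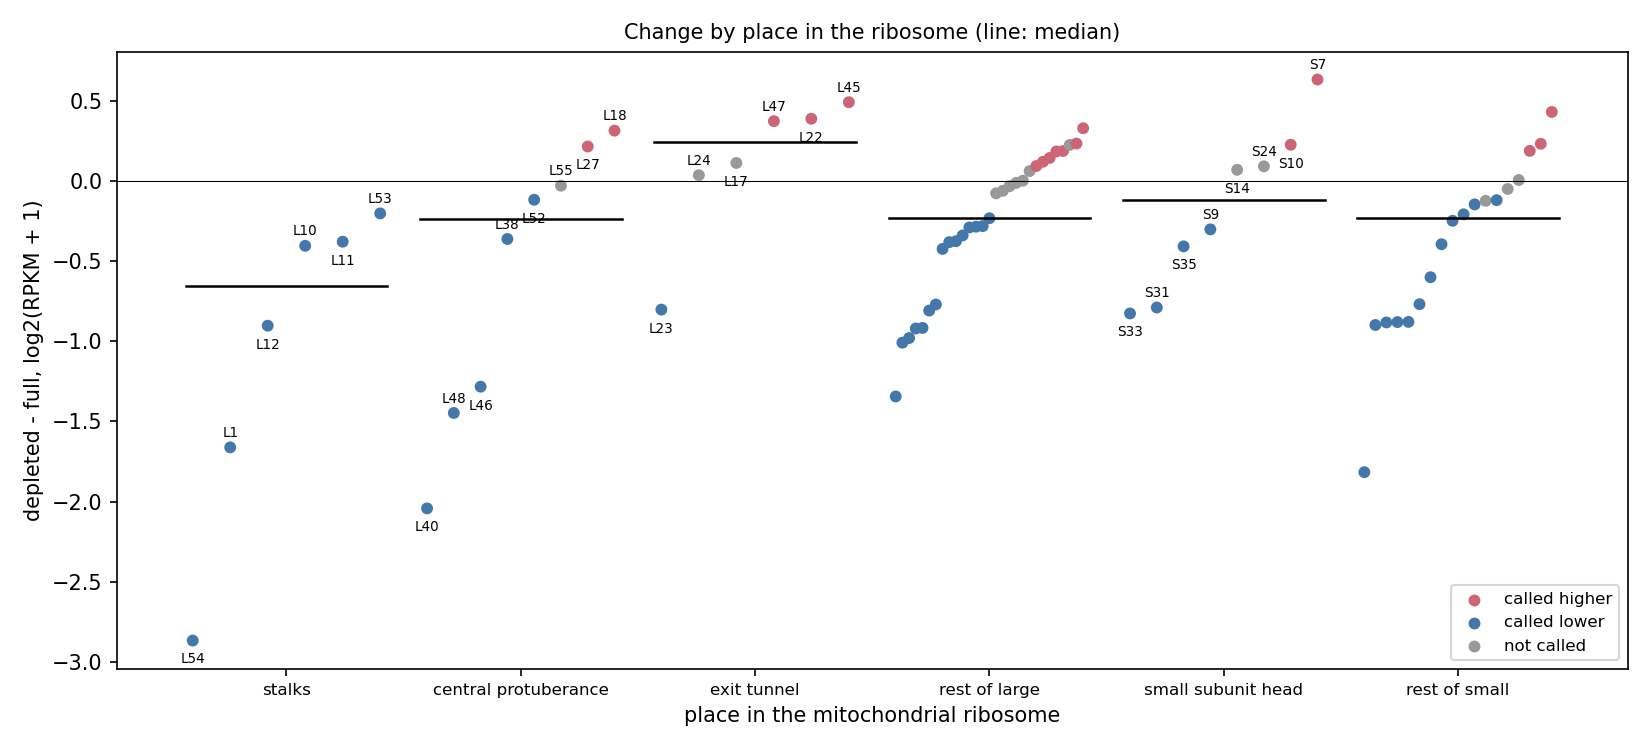
Difference of log2(RPKM + 1) between depleted and full medium for members grouped by place in the mitochondrial ribosome, one point per gene, coloured by the limma call, with the group median as a line, labels without MRP, and the second entries and MRPS36 left out. The 6 stalk genes are all below 0 (median -0.65), and 5 of the 6 genes assigned to the exit tunnel are above 0 (median 0.25). Places were assigned after the values were seen.

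At the exit tunnel, through which new peptides leave towards the inner membrane, 3 of 6 members were higher and 1 was lower. Of all genes 29.8% were higher and 31.2% lower. These 6 members were placed there after the values were seen. GADD45GIP1, a protein near the tunnel exit with another kind of symbol, was not among them and fell (log2 change -1.15). MRPL45, which tethers the ribosome to the inner membrane, measured 49.7, 49.6 and 48.5 RPKM with full, 70.2, 69.2 and 69.98 with depleted and 49.5, 53.1 and 53.1 with repleted medium. It rose by 0.49 ± 0.04 (SE), adjusted p = 3.15e-06, a mean 1.42 times that of full medium, and all 3 depleted libraries were above the other 6. The pseudogene MRPL45P2 moved the same way, with 6.83, 10.01 and 8.24 RPKM with full, 14.1, 13.7 and 14.7 with depleted and 6.12, 8.55 and 6.31 with repleted medium, and reads that both may share make the MRPL45 value uncertain. MRPL22, which lines the tunnel, measured 65.5, 63.2 and 65.3 RPKM with full, 87.8, 84.2 and 83.4 with depleted and 71.7, 68.4 and 70.04 with repleted medium and rose by 0.39 ± 0.04 (SE), adjusted p = 9.96e-06. MRPL47, at the tunnel's rim, measured 48.1, 47.7 and 49.7 RPKM with full, 59.9, 65.6 and 64.3 with depleted and 53.1, 49.4 and 53.9 with repleted medium and rose by 0.38 ± 0.05 (SE), adjusted p = 0.000104. For both genes the depleted libraries were the highest of all. MRPL23, another protein of the rim, fell by 0.80 ± 0.05 (SE), adjusted p = 1.08e-06, with no overlap. MRPL17 (0.11) and MRPL24 (0.04) were not called.

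Elsewhere in the large subunit the largest decrease was in MRPL16, a protein near the peptidyl transferase centre, which measured 54.5, 54.2 and 57.8 RPKM with full, 21.1, 21.9 and 20.7 with depleted and 52.5, 50.4 and 56.7 with repleted medium. It fell by 1.34 ± 0.05 (SE), adjusted p = 4.74e-08, and all 3 depleted libraries lay below the other 6. MRPL44, in which inherited mutations cause cardiomyopathy, fell by 1.01 ± 0.06 (SE), adjusted p = 5.34e-07, and it was the last member to reach a decrease of 1. MRPL39, the next, fell by 0.98 ± 0.05 (SE), adjusted p = 1.85e-07. The other members of this set that fell were MRPL9 (-0.92), MRPL35 (-0.92), MRPL19 (-0.81), MRPL3 (-0.77), MRPL42 (-0.42), MRPL15 (-0.38), MRPL50 (-0.37), MRPL41 (-0.34), MRPL13 (-0.29), MRPL20 (-0.28), MRPL21 (-0.28) and MRPL33 (-0.23), each value a log2 difference. Of these only MRPL33 had overlapping full and depleted libraries. MRPL51, a mitochondria-specific protein, was the most abundant member per length, with 266, 263 and 247 RPKM with full, 314, 327 and 336 with depleted and 239, 257 and 256 with repleted medium. It rose by 0.33 ± 0.04 (SE), adjusted p = 8.73e-05, and the depleted libraries were above all others. MRPL20, the next most abundant of the large subunit over all libraries, measured 219, 217 and 213 RPKM with full, 174, 179 and 179.5 with depleted and 217, 211 and 206 with repleted medium, so that these 2 moved in opposite directions. MRPL50, the lowest of the large subunit over all libraries apart from the second MRPL30 entry, measured 14.8, 14.7 and 15.2 RPKM with full, 11.1, 10.6 and 12.1 with depleted and 16.3, 17.9 and 15.9 with repleted medium. MRPL28 (0.19), MRPL34 (0.15) and MRPL14 (0.10) were higher, and MRPL2, MRPL4, MRPL37, MRPL43, MRPL49 and MRPL30 were not called, with changes between -0.06 and 0.23.

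Of the small subunit, MRPS26, a mitochondria-specific protein, changed most. It measured 84.4, 84.1 and 83.9 RPKM with full, 20.9, 24.5 and 24.3 with depleted and 96.2, 85.9 and 86.98 with repleted medium. It fell by 1.82 ± 0.06 (SE), adjusted p = 3.07e-08, a mean 3.62-fold lower, and its 3 full libraries differed by less than 1 RPKM. MRPS2, which bridges the head and the body, measured 69.8, 71.1 and 70.5 RPKM with full, 36.6, 36.6 and 38.9 with depleted and 80.9, 73.5 and 70.7 with repleted medium and fell by 0.90 ± 0.05 (SE), adjusted p = 4.89e-07. MRPS11, a protein of the platform that contacts the message, measured 62.4, 62.97 and 63.1 RPKM with full, 33.2, 34.99 and 32.8 with depleted and 61.6, 60.6 and 56.1 with repleted medium and fell by 0.88 ± 0.04 (SE), adjusted p = 2.4e-07. In both genes the depleted libraries lay below all others. MRPS11 and MRPL46 start 34 bases apart on opposite strands, in GENCODE 29, and fell together.

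MRPS16 and MRPS25 lie side by side in the structure, the first with a bacterial counterpart and the second without. MRPS16 measured 96.01, 103 and 96.8 RPKM with full, 52.5, 53.2 and 53.6 with depleted and 103, 95 and 102 with repleted medium, and it fell by 0.88 ± 0.04 (SE), adjusted p = 1.52e-07. MRPS25 measured 69.7, 71.1 and 71.4 RPKM with full, 42.6, 43.3 and 37.7 with depleted and 81.4, 74.5 and 73.1 with repleted medium, and it fell by 0.77 ± 0.06 (SE), adjusted p = 3.46e-06. In each gene all depleted libraries were lower than the other 6. MRPS23 measured 92.5, 77.6 and 84.04 RPKM with full, 46.4, 44.97 and 45.2 with depleted and 88.7, 85.2 and 86.9 with repleted medium, and it fell by 0.88 ± 0.06 (SE), adjusted p = 1.09e-06. MRPS33, a small protein of the head, measured 95.5, 92.7 and 86.9 RPKM with full, 51.4, 49.4 and 53.2 with depleted and 91.96, 90.02 and 89.4 with repleted medium and fell by 0.83 ± 0.04 (SE), adjusted p = 2.89e-07. MRPS34, needed for stability of the small subunit's RNA and the most abundant MRPS member over all libraries after MRPS15, measured 151, 146 and 147 RPKM with full, 98.2, 95.3 and 98.4 with depleted and 165, 148 and 146 with repleted medium. It fell by 0.60 ± 0.05 (SE), adjusted p = 3.23e-06, without overlap. MRPS31, the lowest of the subunit apart from the second MRPS17 entry, measured 16.8, 15.7 and 15.6 RPKM with full, 9.61, 8.65 and 8.30 with depleted and 13.9, 15.4 and 17.2 with repleted medium, and it fell by 0.79 ± 0.08 (SE), adjusted p = 3.09e-05. In MRPS23, MRPS33 and MRPS31 too the depleted libraries lay below all others.

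Of the 9 mitochondria-specific small subunit proteins, 7 were lower and 0 higher, MRPS22 (0.01) and MRPS27 (-0.12) being the uncalled ones (7 at an unadjusted p under 0.05). Of the 18 small subunit entries with a bacterial counterpart, 9 were lower and 6 higher. In the large subunit 12 of 18 mitochondria-specific members were lower and 3 higher, and 15 of 32 with bacterial counterparts were lower and 9 higher. Among all genes 31.2% were lower and 29.8% higher, so each class, those with bacterial counterparts included, had a larger share lower. The share higher exceeded that of all genes only among small subunit entries with a bacterial counterpart (33.3%). That excess rests on the weakly measured second entry of MRPS17, which is counted among them as higher. The difference between these classes was not tested. Of 8 members in the head of the small subunit, 4 were lower and 2 higher, beside the same 31.2% and 29.8% of all genes. The remaining small subunit members that fell were MRPS35 (-0.41), MRPS17 (-0.39), MRPS9 (-0.30), MRPS28 (-0.25), MRPS5 (-0.14) and MRPS6 (-0.12), and MRPS12 (-0.05), MRPS14 (0.07) and MRPS24 (0.09) were not called.

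Increases in the small subunit were led by MRPS36, MRPS7 and MRPS15 among the entries with more than a few RPKM. MRPS36 measured 50.7, 47.7 and 46.5 RPKM with full, 78.1, 82.7 and 81.4 with depleted and 45.2, 42.8 and 48.7 with repleted medium, and it rose by 0.73 ± 0.05 (SE), adjusted p = 2.54e-06. MRPS36 was 1.67 times as high in depleted as in full medium, and its depleted libraries stood above all others. Its pseudogene MRPS36P1 was listed at 3.39, 6.38 and 4.59 RPKM with full, 10.4, 9.72 and 11.5 with depleted and 14.5, 11.3 and 7.82 with repleted medium. It was called higher in depleted than in full medium, and its repleted libraries also lay above the full ones, without a call (adjusted p = 0.329). MRPS7, which lies near the outgoing transfer RNA in the head, measured 103, 107 and 104 RPKM with full, 164, 162 and 163 with depleted and 107, 105 and 101 with repleted medium. It rose by 0.64 ± 0.03 (SE), adjusted p = 2.14e-07, and the 3 depleted libraries differed by less than 2 RPKM. MRPS7 shares bases with GGA3 and MIF4GD on the opposite strand, and GGA3 was lower in depleted medium (log2 change -0.58, adjusted p = 0.00214). MRPS15 was the most abundant MRPS member over all libraries, though below MRPS34 in full and repleted medium. MRPS15 measured 127, 122 and 124 RPKM with full, 166, 168 and 171 with depleted and 115, 119 and 127 with repleted medium. It rose by 0.43 ± 0.04 (SE), adjusted p = 9.05e-06. MRPS10, a protein of the head, measured 33.9, 33.8 and 31.9 RPKM with full, 39.3, 39.1 and 38.8 with depleted and 31.2, 32.3 and 32.9 with repleted medium and rose by 0.23 ± 0.04 (SE), adjusted p = 0.000948. MRPS21 (0.19) was also higher. In all 5 genes the depleted libraries were the highest.

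**Figure D4:**
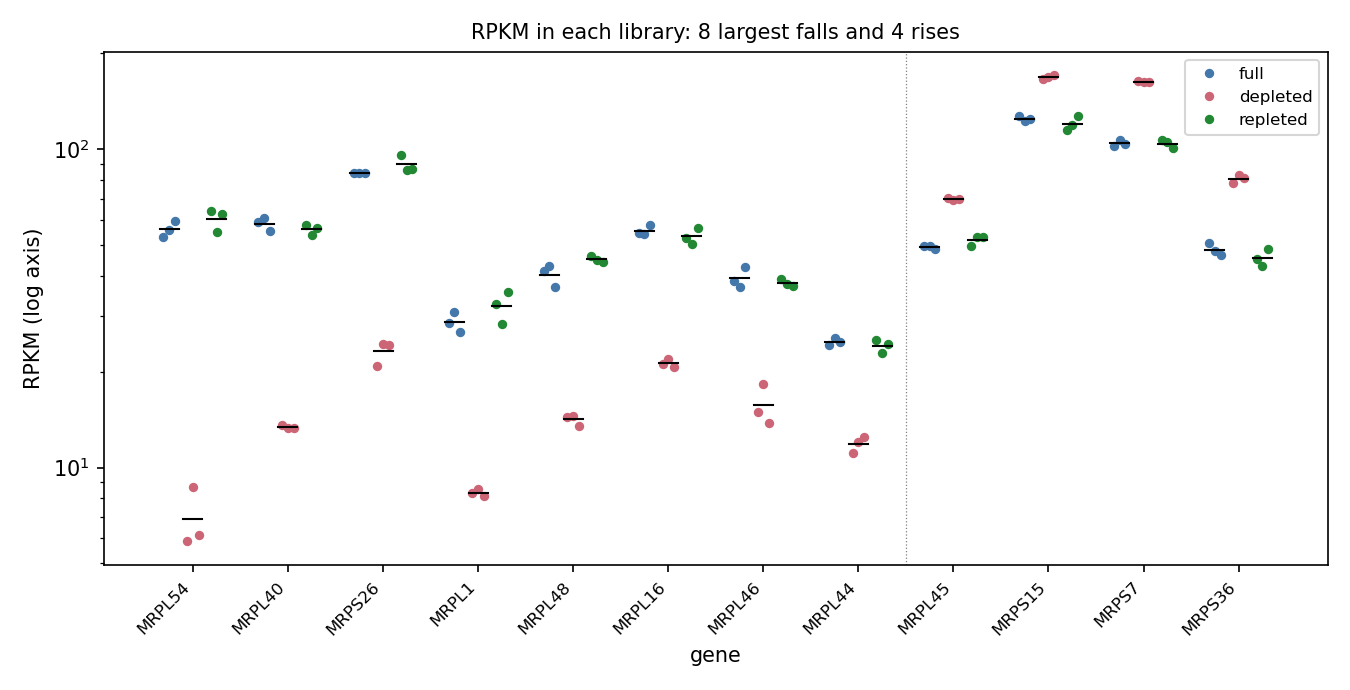
RPKM on a log axis in each of the 3 full, 3 depleted and 3 repleted libraries for the 8 members that fell by at least 1 on the log2 scale (left of the dotted line) and 4 that rose; horizontal marks are group means. Depleted libraries lie apart from the other 6 for all 12 genes, as for MRPL54 at 5.86 to 8.71 RPKM against 53.0 to 64.1.

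Several members belong to bacterial protein families in which some proteins bind zinc, and they did not move together. The 3 human paralogs of bacterial S18 differed. MRPS18B measured 46.4, 43.7 and 44.04 RPKM with full, 52.1, 52.97 and 53.3 with depleted and 46.2, 48.4 and 45.9 with repleted medium and rose by 0.23 ± 0.04 (SE), adjusted p = 0.000572. MRPS18C, the paralog at the bacterial position of S18, measured 55.4, 56.4 and 51.6 RPKM with full, 48.4, 41.97 and 51.2 with depleted and 60.5, 58.9 and 61.6 with repleted medium and fell by 0.21 ± 0.07 (SE), adjusted p = 0.0254. That call was lost under 6 of 16 alternative settings, among them the fits without full replicate 1, full replicate 2 or depleted replicate 2, with adjusted p-values up to 0.0803. MRPS18A, which sits in the large subunit, measured 41.8, 46.3 and 44.3 RPKM with full, 41, 40.7 and 43.8 with depleted and 47.01, 50.3 and 48.2 with repleted medium; it was not called against full medium (-0.08 ± 0.05, adjusted p = 0.219) and was lower against repleted medium (-0.21 ± 0.05, adjusted p = 0.0049). MRPS18B was thus above, and MRPS18C below, both other groups in every depleted library. MRPL32, which is cut by the mitochondrial AAA protease before assembly, measured 34.6, 35.1 and 30.98 RPKM with full, 36.7, 42.5 and 39.98 with depleted and 33.2, 33.1 and 33.95 with repleted medium and rose by 0.24 ± 0.06 (SE), adjusted p = 0.00965. MRPL36 measured 66.8, 63.5 and 68.2 RPKM with full, 75.02, 70.3 and 71.02 with depleted and 71.5, 65.5 and 65.97 with repleted medium and rose by 0.12 ± 0.05 (SE), adjusted p = 0.0462, a call lost under 9 of the 16, 6 of which left out 1 library. MRPS30, a mitochondria-specific protein of the large subunit, measured 45.1, 44.2 and 44.9 RPKM with full, 49.3, 52.4 and 51.7 with depleted and 41.8, 42.6 and 41.2 with repleted medium and rose by 0.19 ± 0.04 (SE), adjusted p = 0.00166. In MRPL32 and MRPS30 the depleted libraries were the highest of all, and in MRPL36 they overlapped the repleted ones.

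The second entries had low values. That of MRPL30 measured 1.67, 1.06 and 2.11 RPKM with full, 1.48, 0.470 and 0.420 with depleted and 2.03, 0 and 1.71 with repleted medium and was not called. That of MRPS17 measured 1.82, 1.54 and 2.52 RPKM with full, 4.43, 4.05 and 4.45 with depleted and 2.02, 1.77 and 3.61 with repleted medium and rose by 0.86 ± 0.19 (SE), adjusted p = 0.00388. The first MRPS17 entry, with 29.02, 28.2 and 31.3 RPKM with full, 19.8, 23.6 and 23.5 with depleted and 28.5, 29.2 and 27.2 with repleted medium, fell by 0.39 ± 0.07 (SE), adjusted p = 0.0011, so the 2 entries of 1 symbol moved in opposite directions. GENCODE 29 lists the second entries under the names AC092587.1 and AC092647.5. Of 76 members with an entry in GENCODE 29, 39 overlapped a gene on the opposite strand and 25 a gene on the same strand, and 25 overlapped neither. Of 66 pseudogene entries of the family, 4 averaged at least 1 RPKM. Among them MRPS31P5, like MRPS31, was called lower in depleted than in full medium, with means of 1.32 and 2.32 RPKM. Whether MRPS31 or MRPS36 shares reads with its pseudogene was not tested.

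Protein-coding neighbours that start within 1000 bases on the opposite strand were found for 29 members, and 26 of these had a tested neighbour. Of the 11 that were lower, 2 had a lower neighbour, which were MRPL46 and MRPS11 themselves, and 7 (63.6%) had a higher one. MRPL54's neighbour APBA3 rose (log2 change 0.30, adjusted p = 0.0236). Among all tested genes with such a neighbour and lower in depleted medium, 37.1% had a lower neighbour and 31.4% a higher one. A lower neighbour was thus less frequent than a higher one among the 11 lower members, and more frequent than a higher one among all such genes. This difference was not tested. Some of the higher neighbours were weakly expressed and overlapped the member on the opposite strand. They include OAZ3 at MRPL9, with a mean of 0.643 RPKM in full medium, and PELI3 at MRPL11, with 3.67. Of 9 higher members 5 (55.6%) had a higher neighbour, a share near the 52.4% of all such genes that were higher. One of them was MRPL18 with TCP1 (0.57), a subunit of the cytosolic chaperonin.

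Other genes of mitochondrial translation were counted on lists chosen with earlier results of these data known. All 7 subunits of the mitochondrial ribosome with other symbols were called, 5 lower (71.4%) and 2 higher (28.6%), beside 31.2% and 29.8% of all genes. ICT1, a large subunit protein that can release stalled peptides, measured 42.3, 41.3 and 40.4 RPKM with full, 17.1, 14.8 and 14.8 with depleted and 36.7, 39.5 and 43.4 with repleted medium, and it fell by 1.36 ± 0.07 (SE), adjusted p = 3.1e-07. GADD45GIP1, near the tunnel exit, fell by 1.15 ± 0.04 (SE), adjusted p = 2.24e-08, and CHCHD1, a small subunit protein, fell by 0.90 ± 0.04 (SE), adjusted p = 1.02e-07. DAP3 (0.22), the GTP-binding protein of the small subunit head, and AURKAIP1 (0.24) were higher.

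Assembly factors of the mitochondrial ribosome were 8 lower (30.8%) and 5 higher (19.2%) of 26, with a median of 0.0098, so that the share lower was near the 31.2% of all genes. ERAL1, the chaperone of the small subunit's RNA, measured 70.9, 72.7 and 73.5 RPKM with full, 23.5, 23.6 and 22.1 with depleted and 71.2, 72.7 and 71.3 with repleted medium, and it fell by 1.61 ± 0.04 (SE), adjusted p = 3.28e-09. NSUN4, a methyltransferase of late assembly, fell by 1.02 ± 0.10 (SE), adjusted p = 1.36e-05. GTPBP10, a GTPase of large subunit assembly, measured 17.5, 17.2 and 16.5 RPKM with full, 31.8, 34.4 and 34.9 with depleted and 15.7, 14.9 and 16.1 with repleted medium and rose by 0.94 ± 0.05 (SE), adjusted p = 4.89e-07. Translation factors were 6 lower (37.5%) and 5 higher (31.3%) of 16, with a median of -0.03, beside 31.2% and 29.8% of all genes. TACO1, the translational activator of the COX1 message, measured 41.3, 43.2 and 40.4 RPKM with full, 7.35, 7.25 and 7.13 with depleted and 44.6, 40.4 and 37.5 with repleted medium. It fell by 2.37 ± 0.06 (SE), adjusted p = 6.3e-09. TSFM, the exchange factor of elongation factor Tu, fell by 1.15 ± 0.07 (SE), adjusted p = 6.59e-07, while the release factor MTRF1 rose by 1.04 ± 0.08 (SE), adjusted p = 3.16e-06 and GUF1, a translocation factor, rose by 0.61 ± 0.05 (SE), adjusted p = 5.21e-06.

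Genes of mitochondrial transcription and RNA handling were 12 lower (60.0%) and 3 higher (15.0%) of 20 entries, with a median of -0.21. Of all genes 31.2% were lower and 29.8% higher. FASTK, a mitochondrial RNA-binding protein, fell by 1.64 ± 0.11 (SE), adjusted p = 1.65e-06, and FASTKD1, its relative, fell by 1.32 ± 0.07 (SE), adjusted p = 2.4e-07. TEFM, the elongation factor of the mitochondrial polymerase, fell by 0.64 ± 0.07 (SE), adjusted p = 3.51e-05, while the helicase SUPV3L1 rose by 0.59 ± 0.05 (SE), adjusted p = 4.29e-06. Between repleted and full medium limma called 0 of 7, 0 of 26, 0 of 16 and 0 of 20 entries of these 4 lists, with 1, 1, 1 and 2 at an unadjusted p under 0.05. Cytosolic ribosomal protein genes went the other way from the mitochondrial ones in count. Of 84 tested, 46 were higher (54.8%) and 15 lower (17.9%), with a median of 0.105, beside 29.8% and 31.2% of all genes.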

How the data were processed

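Polyadenylated RNA was read from single ends in 9 libraries, 3 per medium. The authors deposited 1 table, with log2 of RPKM plus 1 for each gene and library and with gene lengths. Checked on the values, 100% of them gave multiples of 0.01 RPKM once the log was undone. The submitters' processing notes name RSEM 1.2.6, Bowtie 1.0.1, BWA 0.7.12-r1039, bedtools 2.25.0.3 and the builds hg19 and GRCh37, with no role. Further scaling between libraries, and the use of strand, are not given in the sources used here. The 20320 blank lines of the table were dropped.

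The deposited log2 values were fitted with limma 3.58.1 (R 4.3.3) with a variance trend, 1 mean per medium over all 9 libraries and no block. A gene was tested if 3 or more libraries reached 1 RPKM, which 15774 did. The p-values were adjusted by Benjamini-Hochberg over all genes of a comparison and called at 0.05. They weigh a difference of group means against the spread between these libraries, which limma draws towards a trend over all tested genes. The pseudocount of 1 makes changes of weakly expressed genes look smaller.

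Members, lists and the rule for named genes were chosen with earlier results of these data known. The rule takes the 6 largest rises and falls of each subunit among called members without overlap, the 2 highest and 2 lowest levels, certain paralogs and structural pairs, and up to 4 genes of each related list; other members are named with fewer values. Subunit places and the ACANNTCCC motif were chosen after values were seen. Alternatives were a pseudocount of 0.1, no filter, 6 libraries only, a replicate block, median centring, quantile normalization, each library left out, a threshold of 0.01, structural subunits and, added after seeing the data, 1 entry per symbol. Promoters came from RefSeq (GRCh38.p14), neighbours and overlaps from GENCODE 29. Python 3.11.15 and matplotlib 3.10.9 made the plots. Coordinates of genes on hg19 and protein sequences were not used here.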

Additional observations from a re-analysis of the deposited data

How the results depend on the processing

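Over all alternatives the members called in depleted against full medium numbered 16 to 22 higher and 36 to 43 lower, and against repleted medium 14 to 19 higher and 41 to 43 lower, with 0 called in repleted against full medium (limma; 6 at an unadjusted p under 0.05 in the fit reported). Of the 62 calls against full medium 52 held under every one of 16 alternatives, the threshold of 0.01 included, and of the 59 against repleted medium 55 did; 0 changed sign. Those lost against full medium were MRPL38 and MRPS28, at the threshold of 0.01 alone, MRPS5, also after median centring, and MRPL34, MRPS18C, MRPL36, MRPL52, MRPL14, MRPL33 and MRPS6, each also with 1 library left out; those lost against repleted medium were MRPL34, MRPL52, MRPS21 and the second MRPS17 entry. With the replicate number as a block, 20 members were higher and 42 lower against full medium. Residuals of libraries with the same number correlated between -0.0144 and 0.0726, so the numbers were not taken to pair them. The large minus small difference of medians, -0.148 against full medium, was between -0.177 and -0.075 with single libraries left out, the latter without depleted replicate 1, and -0.049 by structural subunit. Against repleted medium it was -0.033, 0.029 after quantile normalization and between -0.067 and 0.01 with single libraries left out, positive only without repleted replicate 1; the cause was not tested. Against full medium the difference was below 0 under every alternative, and against repleted medium it was 0.021 by structural subunit. Depth is known only as an estimate, so counting error could not be given.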
